A study of Mus musculus with 4 samples.

Results

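The 8 genes described here make up the core of MHC class II presentation in the mouse: the classical chains H2-Aa, H2-Ab1 and H2-Eb1, the invariant chain Cd74, the peptide loading factors H2-DMa and H2-DMb1, the loading modulator H2-Oa, and the transactivator Ciita. They were taken by symbol from a table of 28440 genes, and all 8 had a row. RNA was measured by bulk poly-A sequencing in 4 mammary gland tumours, numbered 1 to 4, of the genotype MMTV-R26Met, in which MMTV promoter activity in the mammary epithelium turns on a Met transgene placed in the Rosa26 locus. All 4 tumours belong to 1 group, and no normal gland, control genotype or treated tumour is among them, so the design asks how high these genes stand in the tumours and how far the tumours differ. Strain, age and pooling are not given in the labels, nor whether each tumour is from a different mouse, so p-values describe the spread between these 4 samples only.

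Class II molecules are heterodimers of an alpha and a beta chain that show peptides from the endosomal pathway to CD4+ T cells. In the endoplasmic reticulum the chains assemble on the invariant chain, which fills the groove. Endosomal proteases then trim it to a short peptide, and the H2-DM heterodimer exchanges that peptide for others, a step that the H2-O heterodimer holds back. Ciita is the coactivator without which the class II genes are largely silent. It binds no DNA itself but docks on RFX, CREB and NF-Y proteins that sit on an X box and a Y box in front of each class II gene. Dendritic cells, macrophages and B cells carry class II constantly, and many other cells, epithelial cells among them, can be brought to express it by interferon gamma through Ciita.

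Promoter windows of 250 bases before to 50 bases after the start of transcription were available in RefSeq (GRCm38.p6) for 5 of the 8 genes. The letters GNAAC, from the X box region, and TGATTGG, which holds the Y box, were searched on both strands, with a gap of 14 to 40 bases between them, so that the elements do not overlap. These letters were chosen after the windows had been read. The windows of H2-Aa, H2-Eb1, H2-DMb1 and H2-Oa held the pair on the sense strand, with a gap of 26 bases in H2-Aa, H2-DMb1 and H2-Oa and of 25 bases in H2-Eb1. Of 32851 windows in the table, 0.344% held the pair on the sense strand and 0.758% on either strand, while 7.82% held TGATTGG alone. The 2 windows of H2-DMa held neither the pair nor TGATTGG. They lie at chr17:34122582-34122881, which overlaps Brd2, and chr17:34125268-34125567, both inside the annotated gene (34119693 to 34139101). Any other start of H2-DMa was not searched, so this absence holds for these windows only. Of the other class II genes, H2-Ob and H2-Eb2 held the pair, and H2-DMb2 held TGATTGG without the pair. The stretches around the pair are shown because these 4 class II genes have the pair in common, with capitals marking GNAAC and TGATTGG. They lie at chr17:34287847-34287934 on the minus strand for H2-Aa, and on the plus strand at chr17:34305746-34305832 for H2-Eb1, chr17:34153067-34153154 for H2-DMb1 and chr17:34092273-34092360 for H2-Oa.
H2-Aa: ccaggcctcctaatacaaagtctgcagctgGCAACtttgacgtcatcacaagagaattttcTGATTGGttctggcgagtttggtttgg
H2-Eb1: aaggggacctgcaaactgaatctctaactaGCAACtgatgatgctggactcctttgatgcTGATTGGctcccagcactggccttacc
H2-DMb1: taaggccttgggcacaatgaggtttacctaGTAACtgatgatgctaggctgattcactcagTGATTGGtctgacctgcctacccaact
H2-Oa: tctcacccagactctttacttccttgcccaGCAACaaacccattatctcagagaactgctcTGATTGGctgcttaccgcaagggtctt

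The 4 libraries held between 35220504 and 42809015 counts, and every pair of libraries differed beyond counting error (chi-square per degree of freedom of at least 131.9). Levels are given as CPM, counts scaled to a common library size after TMM correction. A count of 0 allows up to 3 counts, or 0.0706 to 0.0865 CPM depending on the library. To compare tumours, each of 15808 genes with enough counts was tested for whether it varied between the tumours more than genes of like expression do. H2-Oa did not pass the count filter, so 7 of the 8 class II genes were tested.

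The classical chains were all well expressed in every tumour and were highest in tumour 4. H2-Aa (Entrez gene 14960, chromosome 17, 34282744 to 34287823, GRCm38), the alpha chain of the I-A molecule, had 111.5, 154.6, 101.4 and 240.2 CPM in tumours 1 to 4. H2-Ab1 (Entrez gene 14961, chromosome 17, 34263227 to 34269418), its beta chain, had 103.1, 128.9, 91.0 and 201.5 CPM. H2-Eb1 (Entrez gene 14969, chromosome 17, 34305867 to 34316674), the beta chain of the I-E molecule, had 93.2, 117, 79.9 and 198 CPM. In each of the 3 genes tumour 4 stood highest, tumour 2 next, then tumour 1, with tumour 3 lowest. The means were 152 ± 63.2, 131 ± 49.5 and 122 ± 53.0 CPM (SD, n = 4), and the highest tumour exceeded the lowest 2.37-, 2.21- and 2.48-fold. H2-Ea, the alpha chain that pairs with H2-Eb1, had 0 counts in all 4 libraries, which allows at most 0.0865 CPM. RefSeq annotates H2-Ea as a transcribed pseudogene in the reference strain, in which the I-E molecule is not made.

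Cd74 (Entrez gene 16149, chromosome 18, 60803849 to 60812652), the invariant chain that chaperones new class II dimers, was the most abundant of the 8 genes. It had 186, 305, 200.0 and 446 CPM in tumours 1 to 4, a mean of 284 ± 120 CPM (SD, n = 4). Tumours 1 and 3 lay close together and tumour 4 exceeded tumour 1, the lowest, 2.40-fold. Among all genes of a library Cd74 ranked 863, 442, 822 and 251 in tumours 1 to 4. Together the 8 genes made up 0.0529, 0.0749, 0.0533 and 0.116% of the library in tumours 1 to 4 (95% exact binomial intervals 0.0523 to 0.0536, 0.07395 to 0.0758, 0.05255 to 0.0540 and 0.115 to 0.117%). Such intervals cover counting error only, since reads amplified by PCR are not independent molecules.

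The loading factors were much scarcer than the chains. H2-DMa (Entrez gene 14998, chromosome 17, 34119693 to 34139101), the alpha chain of the H2-DM peptide exchanger, had 9.41, 13.7, 9.33 and 16.5 CPM in tumours 1 to 4. Its partner H2-DMb1 (Entrez gene 14999, chromosome 17, 34153191 to 34160229) had 15.3, 16.6, 15.1 and 30.15 CPM. H2-DMb1 was set apart in tumour 4, while its values in the other 3 tumours lay within counting error of each other, with exact Poisson intervals (95%) of 14.2 to 16.6, 15.3 to 18.1 and 13.9 to 16.4 CPM. H2-DMa in tumour 2 (12.5 to 14.99 CPM) lay above tumours 1 and 3 (8.51 to 10.4 and 8.39 to 10.35 CPM). The 5' end of H2-DMa overlaps Brd2 in the annotation, and H2-DMb1 has a close copy, H2-DMb2, which had 0.952 to 1.61 CPM, so part of these counts is uncertain.

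H2-Oa (Entrez gene 15001, chromosome 17, 34092379 to 34095234), the alpha chain of the H2-O molecule that restrains H2-DM and is known mainly from B cells, was close to the limit of detection. It had 12, 6, 10 and 8 counts in tumours 1 to 4, or 0.282, 0.173, 0.261 and 0.195 CPM. Every exact Poisson interval overlapped the others, from 0.0635 to 0.377 CPM in tumour 2 to 0.146 to 0.493 CPM in tumour 1, and no difference between the tumours was detectable at this depth. H2-Oa was the one class II gene of the 8 that was not highest in tumour 4. Its beta partner H2-Ob was also scarce, at 0.917, 0.606, 1.04 and 1.32 CPM.

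Ciita (Entrez gene 12265, chromosome 16, 10480014 to 10531064), the transactivator, had the widest relative spread of the 8 genes. It had 14.06, 25.01, 15.4 and 43.7 CPM in tumours 1 to 4, a mean of 24.5 ± 13.7 CPM (SD, n = 4). Tumour 4 exceeded tumour 1, the lowest, 3.11-fold, and tumour 2 lay between tumour 4 and the pair of tumours 1 and 3. Ciita is started from alternative promoters, of which one serves dendritic cells, one B cells and one the response to interferon gamma, and counts per gene do not separate them.

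**Figure D1:**
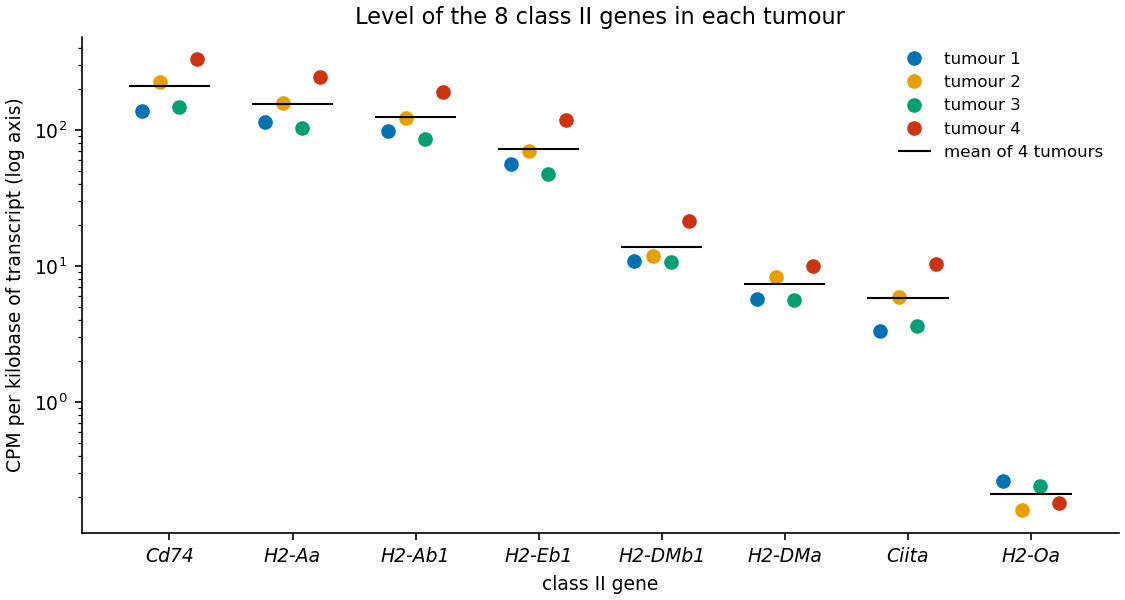
Level of the 8 class II genes in CPM per kilobase of transcript (log axis), 1 point per tumour, with the mean over the 4 tumours as a line. Cd74, H2-Aa, H2-Ab1 and H2-Eb1 stand above the loading factors and Ciita in every tumour, H2-Oa lies lowest, and tumour 4 is the highest point for each gene except H2-Oa.

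Levels of different genes were compared per kilobase, using the median length of their protein-coding transcripts in GENCODE vM21. Cd74 led with 211 ± 89.35 CPM per kilobase (SD, n = 4), followed by H2-Aa at 155.5 ± 64.7, H2-Ab1 at 125 ± 47.1 and H2-Eb1 at 73.1 ± 31.8 CPM per kilobase. H2-DMb1 had 13.75 ± 5.17, H2-DMa 7.37 ± 2.10, Ciita 5.79 ± 3.23 and H2-Oa 0.209 ± 0.0478 CPM per kilobase. The ranges over tumours of neighbouring genes overlapped from Cd74 down to H2-Eb1, and overlapped between H2-DMa and Ciita. They did not overlap between H2-Eb1 and H2-DMb1, which differed 5.315-fold in the mean, between H2-DMb1 and H2-DMa, or between Ciita and H2-Oa. Within single tumours the order of each neighbouring pair held in 4 of 4 tumours, except that H2-DMa exceeded Ciita in 3 of 4. An exact permutation test over 4 paired tumours cannot reach a p of 0.05, and none was run.

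Ratios of counts within a library do not depend on how libraries are scaled, and they show how closely the chains moved together. For each pair of class II genes the SD over the 4 tumours of the log2 count ratio was taken. It was 0.07 for each of the pairs among H2-Aa, H2-Ab1 and H2-Eb1 and ran up to 0.36 for Ciita against either H2-DM gene. The median over the 21 pairs was 0.19, beside 0.52 over all pairs of 11862 tested genes that averaged 5 CPM or more. Of those pairs 0.597% had an SD of 0.08 or less. The genes compared were not matched to the class II genes in abundance. Counting error, which is larger for scarce genes, was not taken out, so its part in this difference is not known. H2-Aa stood at 1.081, 1.199, 1.114 and 1.192 counts per H2-Ab1 count in tumours 1 to 4, and H2-Eb1 at 0.904, 0.905, 0.878 and 0.984.

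**Figure D2:**
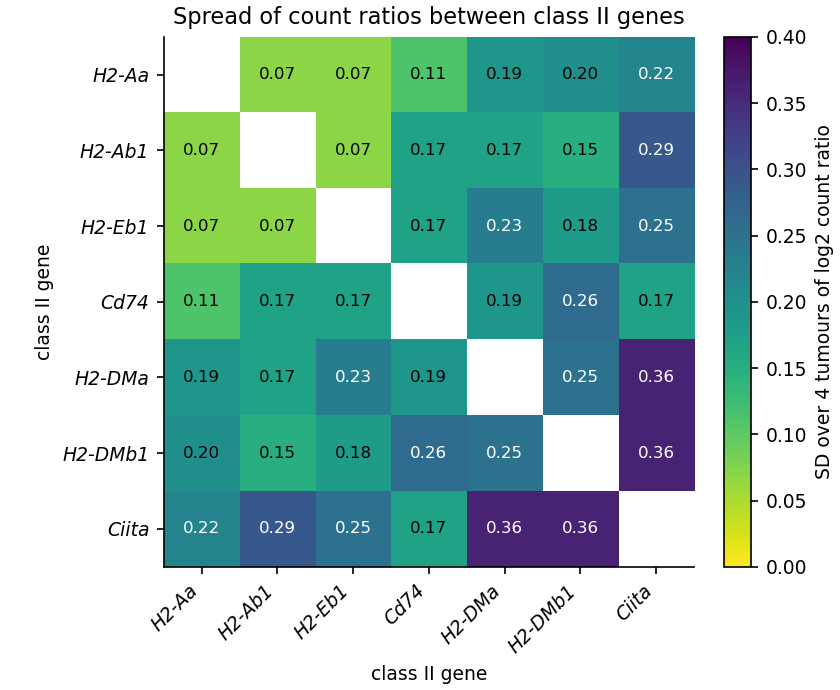
SD over the 4 tumours of the log2 ratio of counts, for each pair of the 7 tested class II genes (colour scale and printed values). The 3 pairs among H2-Aa, H2-Ab1 and H2-Eb1 have an SD of 0.07, and Ciita against H2-DMa or H2-DMb1 has 0.36.

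Cd74 kept less constant a ratio to the chains. It had 0.605, 0.761, 0.735 and 0.697 counts per summed count of H2-Aa, H2-Ab1 and H2-Eb1 in tumours 1 to 4, and the exact interval of tumour 1 (0.588 to 0.622) lay below those of the other tumours. H2-DMa stood at 0.613, 0.823, 0.617 and 0.546 counts per H2-DMb1 count. Tumour 2 was the highest, with an interval of 0.728 to 0.931 that overlapped none of the others. The H2-DM genes summed to 0.0804, 0.0758, 0.0898 and 0.0729 counts per chain count. The lowest value was that of tumour 4, but its interval (0.0695 to 0.0763) overlapped those of tumours 1 (0.0754 to 0.0856) and 2 (0.0712 to 0.0807). Ciita had 0.0457, 0.0625, 0.0564 and 0.0683 counts per chain count, lowest in tumour 1 (0.0420 to 0.0496). The highest value was that of tumour 4 (0.0651 to 0.0717), with an interval that overlapped that of tumour 2 (0.0583 to 0.0669).

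Taken as a group, class II stood highest in tumour 4, and tumours 1 and 3 shared the low end. The class II score averages over the 7 tested genes the log2 CPM after centring each gene on its 4-tumour mean. It was -0.39, 0.09, -0.43 and 0.73 in tumours 1 to 4. All 7 tested genes were highest in tumour 4, as were 28.5% of all genes tested. Cd74 and Ciita were lowest in tumour 1 and the other 5 in tumour 3. The tumour in first place was the same under RLE scaling and with library size alone, while with library size alone H2-DMa and H2-DMb1 were lowest in tumour 1. In 5 of the 7 genes the highest tumour exceeded the lowest by over 2-fold, the exceptions being H2-DMa (1.76-fold) and H2-DMb1 (1.99-fold), and 37.0% of all genes tested did so. The median fold over the 7 genes was 2.37, beside 1.73 over all genes tested. Without tumour 4, 0 of the 7 genes differed over 2-fold between the remaining tumours. The share of all genes over 2-fold was not taken for those tumours, so this drop is not particular to class II on these values.

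None of these differences passed the test against the spread of genes with like expression. Of the 7 class II genes 0 passed at an adjusted p of 0.05, each with an edgeR adjusted p of 1, beside 3.63% of all genes tested. At an unadjusted p under 0.05, 0 of the 7 and 8.74% of all genes would have been called. DESeq2's rule for dispersion outliers marked 0 of the 7, beside 91 of all 15808 genes tested. For as few as 7 genes a count of 0 is close to each of these shares, so it does not set class II apart from other genes. The smallest unadjusted edgeR p was that of Ciita (0.126) and the largest that of H2-DMa (0.772). The SD of log2 CPM was 0.75 for Ciita, above that of 84.4% of genes tested, 0.41 for H2-DMa, above 58.4%, and 0.50 to 0.59 for Cd74 and the chains. In simulated counts for these 4 libraries the test found 0 of 50 genes raised 2-fold in 1 library, 28.6% of those raised 4-fold and 71.4% of those raised 8-fold, so a 2-fold difference in 1 of the tumours was not detectable by it.

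**Figure D3:**
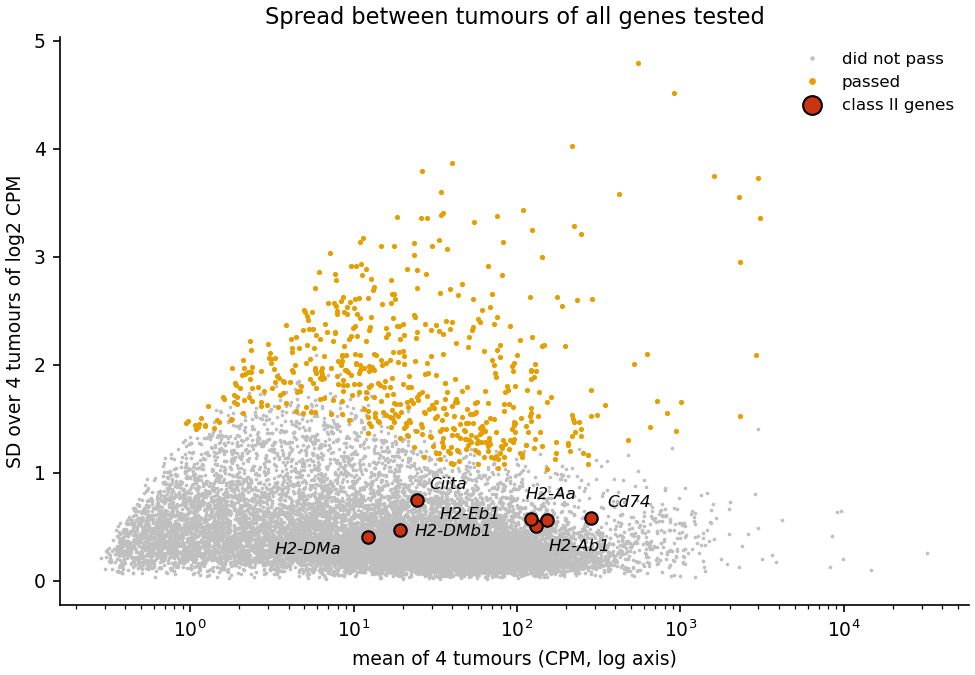
SD over the 4 tumours of log2 CPM against the mean CPM (log axis) of each of 15808 genes tested, with genes past the test in orange and the 7 tested class II genes as large red points. The class II genes lie between an SD of 0.41 and 0.75, below the genes past the test at like expression.

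Genes around the class II machinery followed it only in part. Of 10 genes for peptide supply and turnover 0 passed the test, beside 3.63% of all genes tested. Their median fold between highest and lowest tumour was 1.685, beside 1.73 over all genes tested. Ctss, the cathepsin that makes the final cuts in the invariant chain of antigen-presenting cells, had 136, 262, 149.5 and 223 CPM in tumours 1 to 4 and was highest in tumour 2. Ctsd, an aspartic protease and the most abundant of the list, was highest in tumour 4, at 979, 1419, 779 and 1746 CPM. Ctsl, a cathepsin with the largest SD of log2 CPM in the list, was highest in tumour 3, at 153, 260, 428 and 320 CPM. Ifi30, the lysosomal thiol reductase, had 40.9, 44.2, 37.4 and 57.9 CPM, and Marchf1, the ubiquitin ligase that removes class II from the surface, had 8.63, 14.6, 10.2 and 11.2 CPM. Of the 10 genes 6 were highest in tumour 2, 2 in tumour 3 and 2 in tumour 4. Among all genes tested 28.5% were highest in tumour 4, and the shares for tumours 2 and 3 were not taken.

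The DNA-binding factors of the class II promoters varied little. Of 7 genes 0 passed the test, beside 3.63% of all genes tested, and 0 differed over 2-fold, beside 37.0%. Their median fold was 1.335, beside 1.73 over all genes tested. Creb1, which binds beside the X box, had 77.5, 87.7, 73.3 and 66.7 CPM in tumours 1 to 4, and Rfx5, a subunit of the RFX complex, had 43.6, 34.1, 26.7 and 32.3 CPM. Rfxap, another RFX subunit, was highest in tumour 4, at 11.2, 9.52, 9.59 and 14.1 CPM. Nfya and Nfyb, subunits of NF-Y, had 42.2, 34.15, 35.6 and 33.2 CPM and 28.5, 27.1, 24.8 and 24.0 CPM. Their lowest values, in tumour 4, lay close to those of tumour 2 for Nfya and tumour 3 for Nfyb. The remaining NF-Y subunit, Nfyc, was highest in tumour 4, at 40.8, 35.9, 47.8 and 48.0 CPM in tumours 1 to 4.

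Interferon gamma itself was barely detected. Ifng was at a count of 0 in tumours 1, 2 and 3 (at most 0.0865 CPM) and at 0.171 CPM in tumour 4. Of 9 tested genes of its pathway 0 passed, beside 3.63% of all genes tested. Of the 9, 7 were highest in tumour 4, beside 28.5% of all genes tested. Irf1, a transcription factor that acts on one Ciita promoter, had 72.25, 71.6, 83.5 and 119 CPM, and the receptor chain Ifngr1 had 42.8, 46.9, 29.4 and 69.3 CPM. Tumour 4 was the highest of the 4 in both of these genes.

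Costimulatory and checkpoint ligands, the partners of class II in the contact with T cells, stood below the classical chains. Of 5 tested genes 0 passed, beside 3.63% of all genes tested, and 4 were highest in tumour 4, beside 28.5%. Cd274, which encodes PD-L1, led the list with 11.45, 17.7, 15.9 and 25.4 CPM in tumours 1 to 4. Icosl had 10.2, 16.5, 10.6 and 12.1 CPM, highest in tumour 2. Cd86 had 4.96, 8.34, 5.865 and 8.57 CPM and Cd80 0.988 to 1.32 CPM. Cd4, the T cell receptor partner that binds class II, had 0.573 to 1.07 CPM, and Lag3, which also binds it, had 0.731 CPM in tumour 4 and 1.22 to 2.45 CPM elsewhere.

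Class I presentation also had its highest values in tumour 4, over a wider range. Of 10 genes 4 passed the test, beside 3.63% of all genes tested, and 8 differed over 2-fold, beside 37.0%. The median fold was 5.58, beside 1.73 over all genes tested. H2-K1, a class I heavy chain with near-identical copies, had 440.1, 1324, 164 and 2121 CPM in tumours 1 to 4 (edgeR adjusted p = 0.00158), so that tumour 3 lay below tumour 1, while Cd74 placed them close together. Nlrc5, the class I counterpart of Ciita, had 42.8, 141, 8.73 and 180.5 CPM (edgeR adjusted p = 4.78e-06). H2-D1 (0.00929) and the peptide transporter Tap1 (0.0292) were the others past the test by edgeR's adjusted p. Psmb9, Tap1, Psmb8 and Tap2, which serve class I, lie inside the class II region of chromosome 17, between H2-DMb1 and H2-Ob. There tumour 4 exceeded tumour 3 by 3.93-, 6.88-, 4.03- and 4.30-fold in these genes, beside 1.99-fold in H2-DMb1 and 2.21-fold in H2-Ab1, the nearest class II gene past H2-Ob with over 10 CPM. The difference in spread between the class I and class II genes was not tested.

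**Figure D4:**
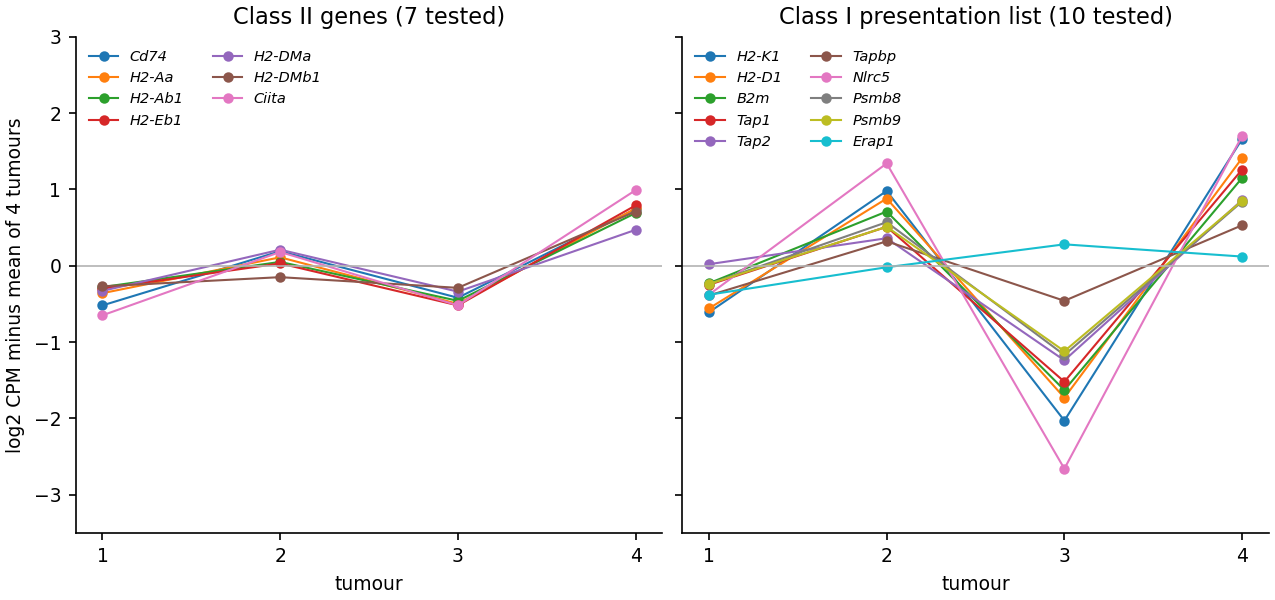
Log2 CPM minus the mean of the 4 tumours for the 7 tested class II genes (left) and the 10 genes of the class I presentation list (right), 1 line per gene across tumours 1 to 4. The class II genes stay between -0.65 and 0.99, with tumours 1 and 3 alike, whereas 9 of the 10 class I genes are lowest in tumour 3.

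Antigen-presenting cells were represented in every library. The summed macrophage, pan-leukocyte and dendritic cell markers were not highest in tumour 4, while the sum of the scarce B cell markers was. In bulk RNA, fewer cells of a type and less RNA per cell cannot be told apart. The macrophage markers, 11 of 11 measured and 0 at a count of 0, summed to 563, 935, 641 and 709.5 CPM in tumours 1 to 4, highest in tumour 2. Of these 11 genes 8 were highest in tumour 2 and 2, Mrc1 and Mertk, in tumour 4, where 28.5% of all genes tested were highest. Pan-leukocyte markers (7 of 7) summed to 231, 353, 274 and 301 CPM, also highest in tumour 2, as were 6 of the 7 genes, with Itgb2 highest in tumour 4. Dendritic cell markers (10 of 10) summed to 49.7, 62.9, 56.0 and 48.5 CPM, lowest in tumour 4, and most of this sum was Itgax, an integrin shared with macrophages. The more specific dendritic genes Xcr1 and Clec9a had 1.05 to 1.38 and 0.156 to 0.353 CPM. Zbtb46 and Irf4, transcription factors of the list, were highest in tumour 4. Zbtb46 had 5.86, 4.355, 7.40 and 8.43 CPM in tumours 1 to 4 and Irf4 had 0.329, 1.01, 0.365 and 1.22 CPM.

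B cell markers were nearly absent. The 8 genes summed to 2.987, 3.202, 3.988 and 5.38 CPM, of which Cd22 gave 1.58, 2.08, 2.37 and 4.17 CPM. Ms4a1, the CD20 gene, had 0.0577 to 0.417 CPM. Epithelial markers (5 of 5) summed to 2288, 3568, 3015 and 3864 CPM, highest in tumour 4. Of these genes 3 were highest in tumour 4 and 2 in tumour 2. Cdh1, the epithelial cadherin, had 283, 358, 284 and 647 CPM and Krt8 had 784, 1180, 1089 and 1232 CPM. Epcam had 476, 756, 498.5 and 744 CPM and Krt18 had 733, 1126, 1103 and 872 CPM, both highest in tumour 2. Fibroblast markers (5 of 5) summed to 1573, 1763, 2114 and 2582 CPM, and endothelial markers (5 of 5) to 173, 126, 158.5 and 103 CPM. Of the B cell, epithelial, fibroblast, endothelial, macrophage, pan-leukocyte and dendritic cell markers tested, Krt19 alone passed the test, with 11.6, 147, 40.8 and 370 CPM (edgeR adjusted p = 1.96e-08). Of the remaining lists, T cell markers summed to 9.16 to 10.7 CPM, a sum to which genes of opposite order contributed. Cd3d, a chain of the T cell receptor complex, had 0.588, 0.8365, 0.730 and 1.34 CPM and the coreceptor Cd8a 0.6585, 1.53, 0.5995 and 1.90 CPM, and Cd3e and Cd3g too were highest in tumour 4, whereas Lck and Lag3 were lowest there. NK cell markers summed to 0.756 to 2.02 CPM, highest in tumour 4. Neutrophil markers summed to 17.8, 29.6, 99.99 and 58.1 CPM, with S100a9 past the test, and adipocyte markers to 15.6, 33.7, 91.2 and 8.65 CPM, with Fabp4 past it, and both lists were highest in tumour 3. The part of these cell types in the class II levels was not tested.

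Set against leukocyte transcripts, class II was highest in tumour 4. The classical chains together had 4.58, 4.29, 3.48 and 8.45 counts per count of Ptprc, the pan-leukocyte phosphatase CD45, in tumours 1 to 4. Per macrophage marker count they had 0.547, 0.428, 0.425 and 0.902, per dendritic cell marker count 6.19, 6.36, 4.87 and 13.2, and per pan-leukocyte marker count 1.33, 1.13, 0.995 and 2.12. Tumour 4 lay above the other tumours in each of these ratios, by more than counting error. This largely follows from the CPM, in which the chains were highest in tumour 4 while Ptprc and the marker sums were not. The spread of these ratios between tumours was not tested. Tumour 2, which followed tumour 4 in CPM, lay between tumours 1 and 3 per pan-leukocyte marker count. Its interval overlapped that of tumour 1 per Ptprc count and per dendritic cell marker count, and that of tumour 3 per macrophage marker count. Ciita had 0.209, 0.268, 0.196 and 0.577 counts per Ptprc count. Relative to epithelial marker counts the chains differed less, at 0.135, 0.112, 0.0903 and 0.166, again with tumour 4 highest and tumour 3 lowest.

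**Figure D5:**
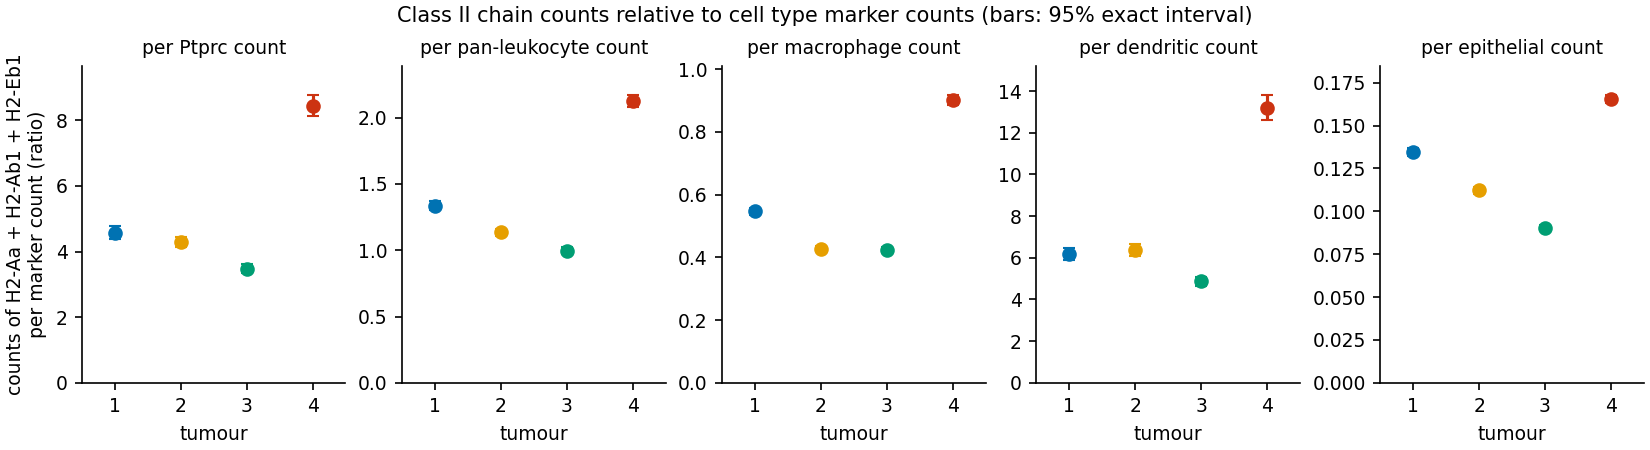
Summed counts of H2-Aa, H2-Ab1 and H2-Eb1 per count of Ptprc and per summed count of the pan-leukocyte, macrophage, dendritic cell and epithelial markers, 1 point per tumour with its 95% exact interval (counting error only). Tumour 4 is highest in every panel, at 8.45 per Ptprc count against 3.48 to 4.58 in the other tumours.

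The genes whose pattern over the 4 tumours was most like the mean of the class II genes came from outside the lists described so far. Likeness was measured as the root mean square difference in centred log2 CPM over the 4 tumours, among 11009 protein-coding genes that averaged 5 CPM or more. The nearest were Mapk13, a p38 kinase (0.024), and Daxx, a histone chaperone (0.025), which both lie on chromosome 17, and the homeobox factor Irx1 (0.033). Mapk13 had 23.3, 32.7, 23.5 and 51.95 CPM in tumours 1 to 4. Znrf2, Farp1, Mfn2, Rnf135, Pgpep1, Tbrg1 and Aktip followed, at 0.051 to 0.071. Within 0.2 of the class II mean lay 326 genes, or 2.96% of those compared, and over 4 tumours such likeness is a description only. Nearest to Ciita were Klhl8 (0.061), the calcium channel Orai1 (0.078), Acot9 and Tpbg (0.088 each) and the lamin Lmna (0.089), and 72 genes lay within 0.2 of it.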

How the data were processed

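Per the labels' protocols, 500 ng of total RNA per tumour was used, poly-A RNA was fragmented and copied by random priming, and paired reads of 100 bases were sequenced. The authors deposited whole-number counts per Entrez gene, 1 column for each of the 4 tumours, with no normalization. FastQC and the builds GRCm38 and mm10 are named in the submitters' processing notes. Aligner, counting program and strand setting were not given in the sources used here, and reads of overlapping genes may therefore be mixed. Class II genes are highly polymorphic and the strain is not given in the labels, so reads from another haplotype may have been lost in alignment to the reference. Of 28440 rows, 24480 (86.08%) were matched to a RefSeq symbol (GRCm38.p6), and these held 97.86% of the counts. The other rows stayed in library sizes and tests. The 18 lists, the 8 class II genes among them (130 memberships, 1 of them without a row, the neutrophil marker Ly6g), were chosen with earlier results of these data known.

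The counts were fitted in edgeR 4.0.16 (R 4.3.3) with TMM scaling, on 15808 genes that passed filterByExpr (10 counts at the median library size in 4 libraries, 15 in total). With 1 group there is no contrast, so a negative binomial model with an intercept alone was fitted per gene at the trended dispersion (biological coefficient of variation 0.331 to 0.514). The p-value came from its deviance by chi-square, adjusted by Benjamini-Hochberg. Log2 CPM used a prior count of 2. On simulated data with nothing changed 0 of 15381 genes were called. Genes were named by rule: the 8 genes, from each list the most abundant and the most variable member and those past the test, and the nearest by likeness (10 and 5). Some other list members serve as examples and were picked with their values known, and some that the rule names are not reported here. Alternatives were RLE scaling, library size alone, other filters, the dispersion outliers of DESeq2 1.42.0, Holm adjustment, medians, other prior counts and leaving out each tumour.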

Additional observations from a re-analysis of the deposited data

Results flagged for a closer look

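Over 40 values given per tumour, 2 had 1 tumour far from the other 3 (Dixon's ratio above its critical value), a number that chance alone would give, since about 1 in 20 such groups is marked by chance. H2-DMb1 was set apart in tumour 4, at 30.15 CPM, with 15.1 to 16.6 CPM in the others. The summed NK cell markers were set apart in the same tumour, at 2.02 CPM, with 0.756 to 0.870 CPM in the others. The NK list rests on 4 genes of under 1 CPM each, none of which passed the count filter. The cause of either value was not tested.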

How the results depend on the processing

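The number of class II genes past the test was 0 under all 10 alternatives, with edgeR adjusted p from 0.9 (Ciita, without tumour 3) to 1 in the fits run. The number of all genes past the test was 574, against 895 with no count filter, 198 with Holm adjustment and 91 as DESeq2 dispersion outliers, and 367 to 417 with 1 tumour left out, lowest without tumour 4. The number of class II genes over 2-fold was 5, with 5 to 6 under other scalings and filters. With 1 tumour left out it was 0 to 6, 0 being without tumour 4. The share of all genes over 2-fold was not taken under these alternatives. The class II score of tumour 4 was 0.69 to 0.74 under other scalings, filters, prior counts, medians and without Ciita, its most variable gene, and 0.58 to 0.76 with another tumour left out. That of tumour 2 ran from -0.06 to 0.33 with another tumour left out, so its sign is not settled. No paired analysis was possible because there is 1 group. H2-Oa and the B and NK cell markers are limited by depth.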

Other observations

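The scarcest class II genes shared the order of the abundant ones only in part, on few counts. H2-DMb2 had 1.41, 0.952, 0.964 and 1.61 CPM in tumours 1 to 4. Its highest value was in tumour 4, but the 66 counts there are not separated from the 60 of tumour 1. Tumour 2, second in the chains, had the lowest value, but its 33 counts and the 37 of tumour 3 do not separate these tumours. H2-Ob was also highest in tumour 4, at 54 counts, and lowest in tumour 2, at 21. The 39 and 40 counts of tumours 1 and 3 are not clearly separated from the 54 of tumour 4. H2-Eb2 had 3, 8, 5 and 1 counts, fewest in tumour 4, where H2-Eb1, its neighbour on chromosome 17, was highest, and these counts are too few to order the tumours.

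H2-Eb1 reached 79.9 to 198 CPM while its alpha partner H2-Ea had 0 counts in every library. The strain of the mice, which sets whether H2-Ea is a working gene, is not given in the labels.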
